A study of Danio rerio with 8 samples.

Results

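The genes described here encode proteins that bind AU-rich elements of messenger RNA and proteins that shorten poly(A) tails. They are 10 Ensembl identifiers of the 31901 in the count table: ZFP36L1 (2 identifiers), ZFP36L2, elavl1a, ELAVL1, CNOT1, CNOT2, CNOT3, CNOT7 and CNOT8. The set was drawn up by gene symbol, with or without the paralogue letter, and it was chosen because both ZFP36L1 identifiers were lower in sf3b1 mutants. The values of ZFP36L1 are therefore a description with no test. The other 8 members entered by function and were tested, though the list was drawn up with earlier results of these data known.

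AU-rich elements are short runs of A and U in the 3' untranslated regions of many unstable transcripts, among them those of growth factors, cytokines and immediate early genes. Proteins of the ZFP36 family bind them through a pair of zinc fingers and recruit the CCR4-NOT complex, which removes the poly(A) tail so that the transcript decays. ELAVL1, known as HuR, binds similar elements and mostly stabilises the transcript. In mice, embryos without Zfp36l1 die in gestation with vascular defects and raised Vegfa protein.

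RNA was measured in kdrl-positive cells, labelled endothelial, of zebrafish embryos at 28 hours post fertilization. There were 4 libraries from sf3b1 mutants and 4 from siblings, all of total RNA depleted of ribosomal RNA. sf3b1 encodes a subunit of the U2 snRNP, which engages the intron branch site early in splicing. Which allele was used, which genotypes the siblings had, and how many embryos or clutches made up a library are not stated in the labels. The p-values therefore cover the spread among these libraries, part of which may be technical.

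Libraries held 10035886 to 13277963 counts in mutants and 10307076 to 12237885 in siblings. The mutated gene, SF3B1 (ENSDARG00000056138), ranged over 149.6 to 187.9 CPM (counts scaled to library size, after TMM) in mutants and over 211.5 to 353.9 CPM in siblings. Its log2 fold change was -0.87 ± 0.166 (SE, adjusted p = 0.00168), where adjusted p-values are those of edgeR's quasi-likelihood test, corrected by Benjamini-Hochberg over every gene tested. At an adjusted p under 0.05, 3902 of the 18289 tested genes (21.3%) passed, 9.92% being higher and 11.4% lower in mutants. Under upper-quartile normalization this balance turned, with 2062 genes higher and 1806 lower, against 1814 and 2088. In the first and in the second principal component, mutant replicate 4 and sibling replicate 2 lay away from their groups. On the first, which carried 36.7% of the variance, they lay at -125.1 and 110.8, each farther from the opposite group than its fellow replicates. All 23 endothelial markers found were detected. Their summed level ran from 3975 to 7461 CPM in mutants, and in siblings from 3757 to 6135 CPM. Of these markers 6 were higher, 2 were lower and 15 did not pass (34.8% passing). The mean of mmrn2a was 168.6 CPM in mutants, against 43.96 CPM in siblings, and that of sox18 84.13 CPM in mutants, against 185.2 CPM in siblings. Markers of other cells were present and unequal. The summed level of 20 erythroid identifiers was 6410 to 8468 CPM in mutants and 11430 to 22480 CPM in siblings, that of 31 neutrophil and macrophage identifiers 467.3 to 887.1 CPM in mutants and 1689 to 1968 CPM in siblings, and that of 30 neural identifiers 706.5 to 777.5 CPM in mutants and 1451 to 2096 CPM in siblings. Of the tested markers, 13 of 19 erythroid and 18 of 24 myeloid identifiers were lower at an adjusted p under 0.05 and none of either list was higher, while 11 of 27 neural ones were lower and 1 was higher. Of the myeloid identifiers, c1qa and 1 identifier of MFAP4 had no count in any library. The 25 muscle identifiers summed to 341 to 1145 CPM in mutants and 481.8 to 897.9 CPM in siblings, with 3 of 22 tested higher and 1 lower. In these bulk samples, fewer cells of a type and less RNA per cell cannot be told apart.

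ZFP36L1 was lower in every mutant library than in any sibling library at both of its identifiers. The names at hand do not say which identifier is zfp36l1a and which is zfp36l1b, so they are told apart by number. The more counted one, ENSDARG00000016154, stood at 234.2, 211.4, 235.5 and 226.8 CPM in the mutant libraries, against 462.5, 359.8, 530.0 and 336.9 CPM in the sibling libraries. The mutants lay close together, with an SD of 4.87% of their mean, while the siblings spread more widely, with an SD of 21.4%. Its mutant mean was 0.537 of the sibling mean, a log2 fold change of -0.90 ± 0.156 (SE).

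The other ZFP36L1 identifier, ENSDARG00000021443, differed more. It stood at 29.15, 34.85, 32.41 and 45.53 CPM in the mutant libraries, against 170.2, 141.9, 246.1 and 113.8 CPM in the sibling libraries. The lowest sibling was far above the highest mutant. The mutant mean was 0.211 of the sibling mean, a log2 fold change of -2.24 ± 0.233. These levels rest on 338 to 554 counts per mutant library and 1416 to 3017 counts per sibling library. Over both identifiers together, ZFP36L1 came to 262.5 ± 11.4 CPM in mutants and 590.3 ± 146 CPM in siblings (SD, n = 4 each), a ratio of 0.445.

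**Figure D1:**
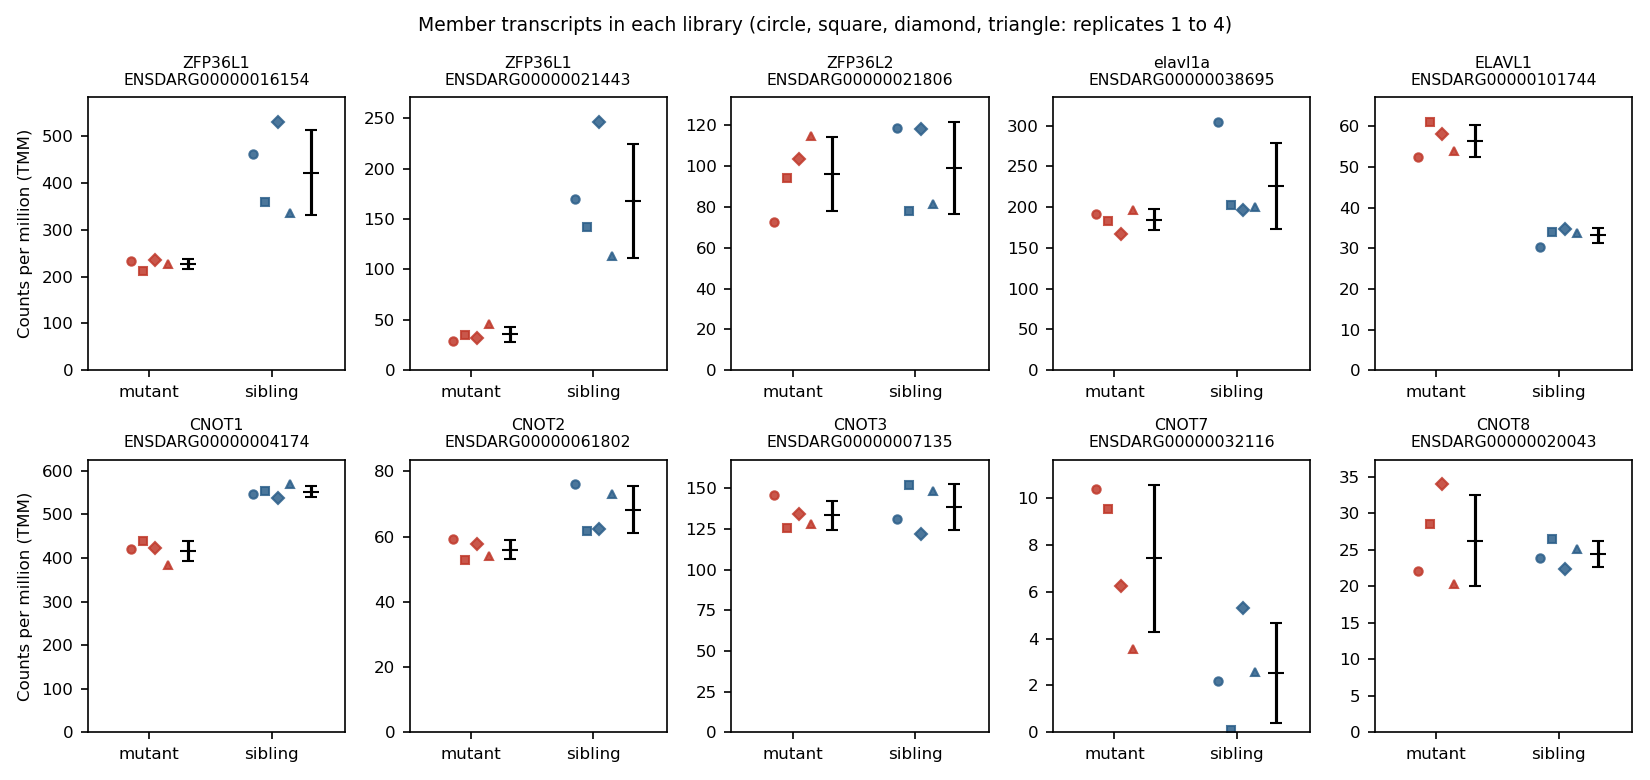
Expression of the 10 member identifiers in each library, in CPM after TMM scaling, with mutants left of siblings. Markers stand for replicates 1 to 4 of each group, and the black bar is the mean ± SD. Both ZFP36L1 identifiers and CNOT1 lie lower in all 4 mutants than in any sibling, and ELAVL1 ENSDARG00000101744 lies higher. By narrow gaps, elavl1a and CNOT2 also lie lower in all 4 mutants, though neither passed.

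The balance between the ZFP36L1 identifiers moved with their unequal falls, so their shares restate the levels above and are no separate result. ENSDARG00000021443 held 11.1%, 14.2%, 12.1% and 16.7% of the pair's counts in the mutants, against 26.9%, 28.3%, 31.7% and 25.2% in the siblings. The mean share was 13.5 ± 2.5% in mutants and 28.0 ± 2.75% in siblings (SD, n = 4 each), a difference of -14.5 percentage points. Exact 95% binomial intervals were computed for single libraries. They cover counting error only, not the spread between libraries, and do not compare the groups. A share of counts is not a share of molecules, since transcript lengths were not used here. No source used here says how reads that match both paralogues were counted.

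Among the siblings the ZFP36L1 identifiers ran in the same order, highest in replicate 3, then 1, 2 and 4. Among the mutants, which spread less, the orders differed. With group means removed, their log2 CPM values had a Pearson r of 0.776 over the 8 libraries, which share depth and preparation between the genes. Sibling replicate 3 also had the lowest erythroid marker sum of the siblings, 11430 CPM, and the highest myeloid sum, 1968 CPM. MRC1 alone gave 553.2 CPM of that myeloid sum, against 371.6, 278.0 and 341.7 CPM in sibling replicates 1, 2 and 4. The rank of the myeloid sum therefore rests on that gene. The lower erythroid, myeloid and neural sums of the mutants run alongside the lower ZFP36L1, and their part in it was not tested. By Pearson r of log2 CPM over the 8 libraries, the 3 genes outside the lists most like ENSDARG00000016154, of 10424 searched, were srsf5a (0.983), BACH1 (0.983) and STOX2 (0.978). Those most like ENSDARG00000021443 were zgc:110239 (0.991), the metalloproteinase inhibitor gene TIMP2 (0.989) and the nucleosome-binding protein gene HMGN2 (0.987). Since the groups differ, these values mostly carry the step between mutants and siblings. These genes were picked by likeness to ZFP36L1, whose fall chose the set. Their lower levels in mutants therefore follow from the search, and no test is given for them. Their log2 fold changes ran from -0.28 ± 0.13 for srsf5a and -0.40 ± 0.157 for STOX2 to -2.8 ± 0.24 for TIMP2. TIMP2 averaged 53.9 ± 16.6 CPM in mutants, against 374.8 ± 99.4 CPM in siblings.

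The third member of the ZFP36 family measured, ZFP36L2 (ENSDARG00000021806), overlapped between the groups. It stood at 72.45, 94.16, 103.5 and 114.7 CPM in the mutants, against 118.7, 78.24, 118.5 and 81.46 CPM in the siblings. The overlap covered most of their range. Its log2 fold change of -0.04 ± 0.194 did not pass (adjusted p = 0.909, edgeR quasi-likelihood test), and its sign turned under upper-quartile normalization (0.02) and on leaving out mutant replicate 1 (0.07) or sibling replicate 1 (0.05) or 3 (0.05).

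**Figure D2:**
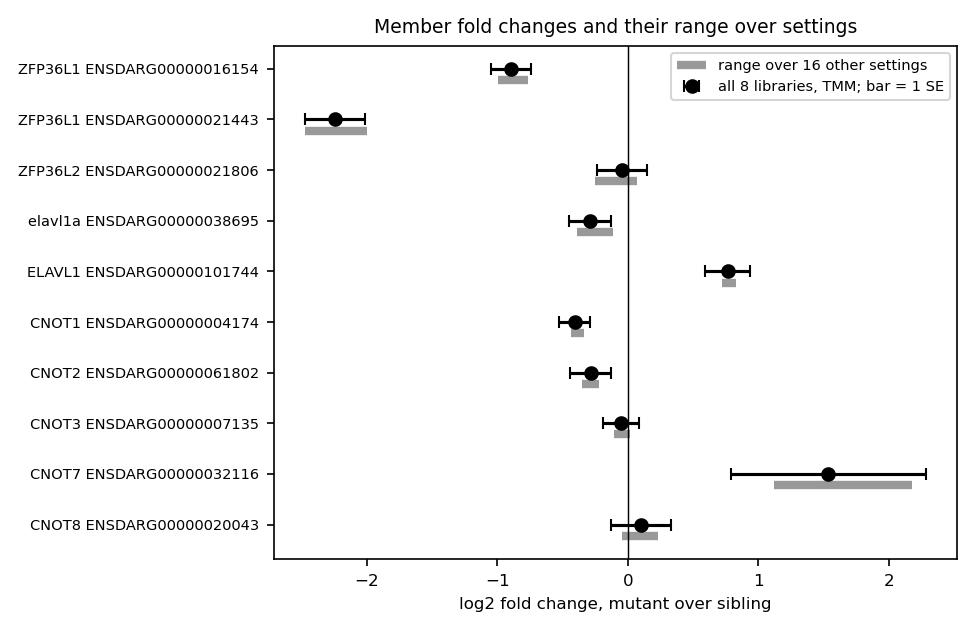
Log2 fold change of mutant over sibling for each member (points, with a bar of 1 SE), with the range over 16 other settings in grey. ZFP36L1 ENSDARG00000021443 lies at -2.24 and ENSDARG00000016154 at -0.90, and CNOT7 has the widest error, 0.748.

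Of the 8 members other than ZFP36L1, 1 rose, 1 fell and 6 did not pass, which is near the 21.3% of all tested genes that passed. Their median log2 fold change was -0.05, against -0.000397 over all tested genes. In 4 of these 8 the groups did not overlap, where 26.7% of all tested genes did not overlap.

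The member that rose was ELAVL1 (ENSDARG00000101744), an identifier of the stabilising protein HuR. It stood at 52.36, 60.99, 58.1 and 53.92 CPM in the mutants, against 30.34, 33.87, 34.66 and 33.74 CPM in the siblings. Both groups were tight and lay well apart. The mutant mean was 1.7 times the sibling mean, a log2 fold change of 0.76 ± 0.17 (adjusted p = 0.00496, edgeR quasi-likelihood test), and all 4 mutants were higher. It passed in each of the 16 other settings, with log2 fold changes of 0.72 to 0.83 and adjusted p-values of 8.86e-05 to 0.0252.

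Its paralogue elavl1a (ENSDARG00000038695), the more counted of the pair, stood at 191.5, 182.8, 167.2 and 196.1 CPM in the mutants, against 304.1, 202.0, 196.2 and 200.7 CPM in the siblings. Sibling replicate 1 was far above all other libraries, and the highest mutant nearly touched the lowest sibling. The log2 fold change was -0.29 ± 0.162 and did not pass (adjusted p = 0.237, edgeR quasi-likelihood test). Summed over both identifiers, the level was 240.7 ± 10.7 CPM in mutants and 258.9 ± 50.4 CPM in siblings (SD, n = 4 each), a ratio of 0.93.

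ENSDARG00000101744 accordingly held a larger share of the ELAVL1 pair in mutants. Its share was 21.5%, 25.0%, 25.8% and 21.6% in the mutants, against 9.07%, 14.4%, 15.02% and 14.4% in the siblings. The groups did not overlap. The difference of 10.2 percentage points gave p = 0.0286 in a two-sided exact permutation test, the smallest p that 4 against 4 allows. ENSDARG00000101744 was higher and elavl1a lower in every mutant than in any sibling, so the shares had to separate. That p-value therefore restates those levels and is no separate evidence of a shift in balance. The shares of the ZFP36L1 pair ran toward the more counted identifier in mutants, and those of the ELAVL1 pair toward the less counted one.

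**Figure D3:**
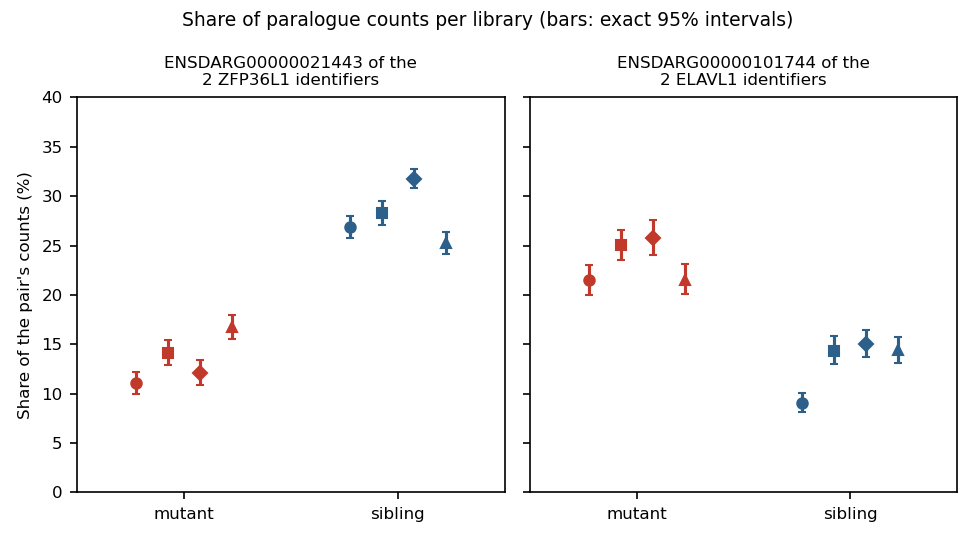
Share of a pair's counts held by the less counted identifier in each library, in percent, for ZFP36L1 (left) and ELAVL1 (right), with mutants left of siblings in each. Bars are exact 95% binomial intervals, which cover counting error only, and markers stand for replicates 1 to 4. Mutant shares are 11.1% to 16.7% for ZFP36L1, all below the siblings, and 21.5% to 25.8% for ELAVL1, all above the siblings.

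CNOT1 (ENSDARG00000004174), the large scaffold on which the CCR4-NOT complex is built, was the member that fell. It stood at 420.5, 438.0, 422.3 and 384.5 CPM in the mutants, against 547.4, 553.2, 538.3 and 568.5 CPM in the siblings. The siblings agreed to an SD of 2.3% of their mean, the smallest of any member in either group, and every mutant lay below them. The mutant mean was 0.754 of the sibling mean, a log2 fold change of -0.41 ± 0.118 (adjusted p = 0.0228, edgeR quasi-likelihood test). The direction held in all 16 other settings, at -0.43 to -0.34. The call was lost in 8 of them, among them the fits without mutant replicate 1 (adjusted p = 0.058), mutant replicate 2 (0.0538), mutant replicate 4 (0.0621), sibling replicate 1 (0.0522) or sibling replicate 4 (0.0575), and without both mutant replicate 4 and sibling replicate 2 (0.0519). The adjusted p-values over these 16 settings ran from 0.00207 to 0.063.

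CNOT2 and CNOT3 form the module that packs against the end of CNOT1. CNOT2 (ENSDARG00000061802) stood at 59.4, 52.92, 57.72 and 54.16 CPM in the mutants, against 76.01, 61.83, 62.4 and 72.94 CPM in the siblings. No mutant reached a sibling, but the gap was narrow, and the log2 fold change of -0.28 ± 0.159 did not pass (adjusted p = 0.241, edgeR quasi-likelihood test). CNOT3 (ENSDARG00000007135) ranged over 125.7 to 145.8 CPM in the mutants and 122.1 to 151.9 CPM in the siblings. Its log2 fold change was -0.05 ± 0.139 (adjusted p = 0.85 in the same test), and its sign turned under upper-quartile normalization, at 0.02.

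CNOT7 and CNOT8 encode alternative catalytic subunits, which cut the poly(A) tail. CNOT8 (ENSDARG00000020043) stood at 22.12, 28.54, 33.94 and 20.3 CPM in the mutants, against 23.94, 26.53, 22.35 and 25.06 CPM in the siblings, with overlapping groups and a log2 fold change of 0.10 ± 0.23 (adjusted p = 0.821, edgeR quasi-likelihood test). CNOT7 (ENSDARG00000032116) was sparsely counted, at 133, 119, 65 and 43 counts in the mutants and 22, 1, 65 and 32 counts in the siblings. Its log2 fold change of 1.54 ± 0.748 did not pass (adjusted p = 0.172 in the same test), and sibling replicate 3 overlapped the mutants. The SD was 42.4% of the mean in mutants and 84.1% in siblings.

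Of 19 tested genes listed for other CCR4-NOT subunits and adaptors, 1 rose, 3 fell and 15 did not pass (21.1% passing, against 21.3% of all tested genes), with a median log2 fold change of -0.09. No further subunit passed. CNOT6 (ENSDARG00000008255), a catalytic subunit of another nuclease family, was at -0.34 ± 0.156, CNOT10 at 0.57 ± 0.24, cnot3b at 0.24 ± 0.181 and CNOT9 at 0.04 ± 0.195. The genes that fell encode adaptors. tnrc6c2 (-1.31 ± 0.24, adjusted p = 0.00123) and TNRC6A (-0.50 ± 0.144, adjusted p = 0.0228) encode proteins that join microRNA complexes to CCR4-NOT, and BTG1 (-0.67 ± 0.131, adjusted p = 0.00204), whose product binds the catalytic subunits, averaged 345.9 ± 33.7 CPM in mutants, against 549.9 ± 49 CPM in siblings. The single riser was eif4enif1 (0.72 ± 0.225, adjusted p = 0.0334), whose product binds the cap-binding protein eIF4E. Its call was lost without mutant replicate 2 (0.76) or 4 (0.49), or without sibling replicate 2 (0.60), 3 (0.69) or 4 (0.75), and that of TNRC6A without mutant replicate 2 (-0.48) or 4 (-0.45), or sibling replicate 4 (-0.44). Without both mutant replicate 4 and sibling replicate 2, eif4enif1 was at 0.38 (adjusted p = 0.184) and TNRC6A at -0.39 (adjusted p = 0.088).

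**Figure D4:**
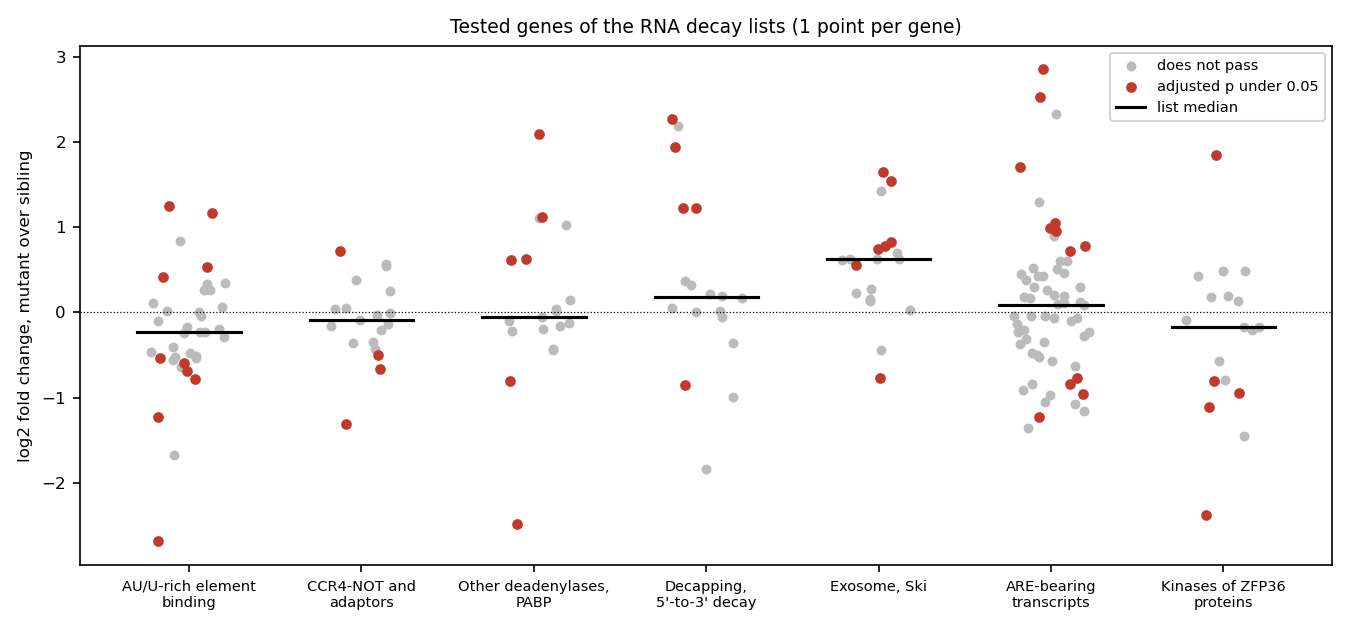
Log2 fold change of mutant over sibling for every tested gene of 5 RNA decay lists, of the list of transcripts with AU-rich elements and of the kinase list. Each point is a gene, red where the adjusted p was under 0.05, and the black line is the list median. The median of the exosome list lies at 0.63 and that of the CCR4-NOT list at -0.09.

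Over the 5 decay lists together, without the members, 111 genes were tested. Of these 19 rose, 13 fell and 79 did not pass, a share passing of 28.8% beside 21.3% of all tested genes, with a median log2 fold change of 0.01. Of the 32 that passed, 20 did so in all 16 other settings, 11 of them higher and 9 lower. Without mutant replicate 2, 11 rose and 9 fell.

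Among 36 tested genes of a broad list of other RNA-binding proteins, 4 rose, 6 fell and 26 did not pass (27.8% passing, beside 21.3% of all tested genes), with a median of -0.23. The list reaches beyond proteins known mainly for AU-rich or U-rich elements. Apart from ELAVL3, the genes that fell were IGF2BP, PCBP and RC3H1 genes, so the split is not one of AU-rich element binders. ELAVL3 (ENSDARG00000014420), the neuronal relative of HuR, fell to 89.5 ± 13.8 CPM in mutants, against 576.9 ± 187 CPM in siblings (-2.69 ± 0.216, adjusted p = 1.66e-06, edgeR quasi-likelihood test). It is itself a neural marker and is counted in the neural marker sum, so the sum is not independent of it. That sum was 706.5 to 777.5 CPM in mutants and 1451 to 2096 CPM in siblings. The part of neural cells in this result was not tested. IGF2BP3, which protects transcripts it binds, fell by 0.78 on the log2 scale (SE 0.17, adjusted p = 0.00427). HNRNPAB (ENSDARG00000099865, 1.25 ± 0.184) and PUM3 (1.16 ± 0.193) rose, PUM3 being known for ribosome assembly more than for messenger decay. The other HNRNPAB identifier (ENSDARG00000007960) was at -0.29 ± 0.164 and did not pass.

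Of 19 tested genes for other deadenylases and poly(A) binding proteins, 4 rose, 2 fell and 13 did not pass (31.6% passing, beside 21.3% of all tested genes), with a median of -0.06. The cytoplasmic poly(A) binding protein gene pabpc1b (ENSDARG00000021140) fell to 14.2 ± 0.592 CPM in mutants, against 79.7 ± 35.6 CPM in siblings (-2.49 ± 0.265, adjusted p = 2.02e-05, edgeR quasi-likelihood test). Its paralogue pabpc1a (ENSDARG00000017219) averaged 2023 ± 156 CPM in mutants, against 2164 ± 201 CPM in siblings (-0.10 ± 0.119, adjusted p = 0.641). TOE1, a nuclease that trims the tails of small nuclear RNAs, rose to 28.6 ± 5.1 CPM in mutants, against 6.70 ± 1.15 CPM in siblings (2.09 ± 0.269). larp4ab (0.62 ± 0.135), whose product binds poly(A), and NOCT (ENSDARG00000077726, 1.12 ± 0.308) rose too. The call of this NOCT identifier was lost without mutant replicate 2 (0.99) or 3 (0.99). The other NOCT identifier (ENSDARG00000078525) was at 0.15 ± 0.736 and did not pass.

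Of 18 tested genes of decapping and 5'-to-3' decay, 4 rose, 1 fell and 13 did not pass (27.8% passing, beside 21.3% of all tested genes), with a median of 0.18. LSM7 (2.26 ± 0.218), LSM6 (1.94 ± 0.343) and LSM4 (1.23 ± 0.258) rose. Their products serve both the cytoplasmic ring that promotes decapping and the nuclear ring on U6 small nuclear RNA. The list's other genes for subunits of these rings were sparsely counted and did not pass. LSM3 was at 0.01 ± 0.547, LSM5 at 0.22 ± 0.491, LSM2 (ENSDARG00000103066) at 2.19 ± 1.22 and LSM1 at -1.84 ± 1.31. EDC4, a scaffold of the decapping enzyme, rose to 161.1 ± 7.16 CPM in mutants, against 69.2 ± 14.3 CPM in siblings (1.22 ± 0.163, adjusted p = 0.000114, edgeR quasi-likelihood test). XRN1, the exonuclease that follows decapping, was the single gene that fell (-0.86 ± 0.208, adjusted p = 0.00825), and it is named here after its value was seen.

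Of 19 genes of the exosome and Ski complexes, which degrade RNA from the 3' end, 6 rose, 1 fell and 12 did not pass (36.8% passing, beside 21.3% of all tested genes), with a median of 0.63. The helicase gene MTREX averaged 131.5 ± 13.3 CPM in mutants, against 76.7 ± 9.8 CPM in siblings (0.78 ± 0.155, adjusted p = 0.00225, edgeR quasi-likelihood test). The catalytic subunit gene DIS3 (0.83 ± 0.193) and the ring subunit gene EXOSC4 (1.54 ± 0.363) rose as well. EXOSC7 (1.64 ± 0.429), EXOSC8 (0.74 ± 0.236) and EXOSC10 (0.56 ± 0.164) made up the rest of those that rose. Their calls were less firm, being lost in 1, 7 and 5 of the 16 other settings. The cap subunit gene EXOSC1 fell (-0.77 ± 0.2, adjusted p = 0.0125), a call lost without mutant replicate 2 (-0.66).

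Transcripts known, mostly from mammals, to carry AU-rich elements were read as well. Of 61 tested, 8 rose, 4 fell and 49 did not pass (19.7% passing, against 21.3% of all tested genes), with a median log2 fold change of 0.09. Among those with the smallest p were mdm2 (2.85 ± 0.151) and cdkn1a (2.53 ± 0.257), which are p53 targets too, and the kinase gene PLK3 (0.99 ± 0.173). The vascular transcripts best known as ZFP36L1 targets in mammals did not pass and were chosen by name after their values were seen. VEGFA (ENSDARG00000103542) averaged 30.0 ± 5.09 CPM in mutants, against 31.4 ± 6.8 CPM in siblings (-0.07 ± 0.227, adjusted p = 0.885, edgeR quasi-likelihood test). Its other identifier (ENSDARG00000034700) was sparsely counted, at 0 to 57 counts per library, and its groups overlapped. It averaged 1.55 CPM in mutants, against 3.23 ± 2.46 CPM in siblings (-1.05 ± 1.05, adjusted p = 0.551 in the same test). The Notch ligand gene dll4 averaged 98.3 ± 22.9 CPM in mutants, against 64.6 ± 27.1 CPM in siblings (0.61 ± 0.263, adjusted p = 0.121).

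Kinases that phosphorylate ZFP36 proteins in mammals were also read. Of 18 tested, 1 rose, 4 fell and 13 did not pass (27.8% passing, beside 21.3% of all tested genes). akt1 (ENSDARG00000099657) fell to 8.50 ± 2.22 CPM in mutants, against 44.2 ± 15.4 CPM in siblings (-2.38 ± 0.293, adjusted p = 6.07e-05, edgeR quasi-likelihood test). Its relative akt2 averaged 213.3 ± 9.91 CPM in mutants, against 227.3 ± 13.6 CPM in siblings (-0.09 ± 0.126, adjusted p = 0.683), while akt3b fell (-0.95 ± 0.227). The stress kinase gene mapk11 fell (-1.11 ± 0.298) and RPS6KA3 (ENSDARG00000035556) rose (1.85 ± 0.193). The other RPS6KA3 identifier (ENSDARG00000057927) was at 0.49 ± 0.255 and did not pass. The fourth gene that fell was MAPKAPK3 (-0.81 ± 0.232), named after its value was seen.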

How the data were processed

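The authors deposited raw counts per Ensembl gene for the 8 libraries, whole numbers with no normalization as far as the values show. Per the labels' protocols, RNA was column purified, depleted with RiboGone and made into libraries with a stranded SMARTer kit. Per the submitters' processing notes, Trim Galore, STAR 2.4.2a, Picard, Cufflinks 2.2.1 and GRCz10 were used. No source used here gives the counting tool or strand setting, so overlapping antisense and unspliced RNA cannot be separated.

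Counts were scaled by TMM, filtered with filterByExpr (smallest count 10, smallest total 15) and tested with edgeR 4.0.16 (robust glmQLFit, glmQLFTest, group only) in R 4.3.3, with Benjamini-Hochberg adjustment. The SE is the log2 fold change divided by the square root of F. All 10 members passed the filter, 6 matched by symbol and 4 without the paralogue letter, from a name table that covers 29178 identifiers. The code was tested on simulated counts. No gene lengths, sequences or positions of this build were used, so levels are not compared between genes. Shares of the ELAVL1 pair were compared by exact permutation, and those of the ZFP36L1 pair were not tested. Replicates differed beyond sampling noise and each library counts as 1 sample.

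Members, lists and alternatives were chosen with earlier results of these data known. Named were sf3b1, every member, up to 4 passing genes with the smallest p per list, and the 3 genes most like each ZFP36L1 identifier (average log2 CPM of at least 3). Values for CNOT6, CNOT9, CNOT10, cnot3b, pabpc1a, akt2, VEGFA and dll4 were added after they were seen. So were those for MRC1, EXOSC7, EXOSC8, EXOSC10, LSM1, LSM2, LSM3 and LSM5, and for the other identifiers of HNRNPAB, NOCT and RPS6KA3. A gene that this rule names is not reported here.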

Additional observations from a re-analysis of the deposited data

Results flagged for a closer look

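Of 26 groups of 4 values checked, in which chance flags about 1 in 20, 2 had a single library far from the other 3. Both came from sibling replicate 1 and from the same gene. elavl1a stood at 304.1 CPM there, with a gap to the nearest library of 0.946 of the group's range, and the share of ENSDARG00000101744 in the ELAVL1 counts was 9.07% in that library, with a gap of 0.89 of the range. Without sibling replicate 1 the log2 fold change of elavl1a was -0.12.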

How the results depend on the processing

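Counts of members other than ZFP36L1 that passed fell to 1, against 2, under upper-quartile normalization, with no filter on low counts, and without mutant replicate 4 and sibling replicate 2, since CNOT1 no longer passed. On leaving out single libraries the count was 1 to 2, and 11 to 17 decay genes were higher and 9 to 14 lower. With 3 libraries a group, the share of the ELAVL1 pair differed by 11.3 points (8.87 to 10.9 on leaving out single libraries), and the exact permutation test cannot go below p = 0.1. The ZFP36L1 log2 fold changes stayed within -0.99 to -0.77 (ENSDARG00000016154) and -2.39 to -2.0 (ENSDARG00000021443) on leaving out single libraries. Signs turned, in differences that never passed, for ZFP36L2 (0.022 under upper-quartile normalization, -0.25 to 0.069 on leaving out libraries), CNOT3 (0.017 under upper-quartile normalization, -0.11 to 0.0028 on leaving out libraries) and CNOT8 (-0.048 to 0.23 on leaving out libraries, the negative value without mutant replicate 3).

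The labels do not say whether same-numbered libraries shared a clutch. Their deviations from the group means correlated at -0.0393 to 0.0534, which cannot settle whether they were paired. With the replicate block, 3782 genes passed, with 19 decay genes higher and 13 lower and log2 fold changes of 0.76 for ELAVL1 and -0.41 for CNOT1, and no call of a member changed. DESeq2 1.42.0 called 4722 genes. The member with the fewest counts was CNOT7, with 1 to 133 per library.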
